A study of Mus musculus with 24 samples.

Results

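The 9 genes described here encode the core of the interferon gamma (IFNG) signalling route and its feedback: the receptor chains Ifngr1 and Ifngr2, the Janus kinases Jak1 and Jak2, the transcription factors Stat2, Irf1 and Irf9, and the inhibitors Socs1 and Socs3. They were taken from a list of names, with no threshold on their values, and matched by symbol among 37230 genes measured in mouse lung tumours. All 9 were present in both expression tables. Mice were injected with tumour cells, tumours were taken on day 15, and live cells without CD45, the common leukocyte antigen, were sorted for RNA sequencing, which gave 24 libraries in 8 groups of 3. The LLC1 line, from the Lewis lung carcinoma, gave 3 groups: Chronic IFNG LLC1, held under a low level of IFNG over a long time, Relapsed LLC1, from tumours that came back after immune checkpoint blockade (ICB), and Parental LLC1. The KP line, from a genetically engineered mouse lung tumour model that carries p53 flox/flox, gave 5 groups: Chronic IFNG KP, 1st relapse KP, 2nd relapse KP, Late relapse KP and Parental KP. The treatment label of every library reads None. The labels do not say whether a relapsed line is 1 clone, how much time separates the relapses, or whether each library came from its own animal. The series text calls the 3 libraries of a group biological replicates, and p-values measure the spread between those libraries.

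IFNG binds a receptor built from IFNGR1, which holds the ligand, and IFNGR2, which completes the signalling complex. The receptor tails carry JAK1 and JAK2, which phosphorylate STAT proteins. STAT dimers then bind gamma-activated sites (GAS) in promoters such as that of Irf1, while type I interferons act mainly through ISGF3, a complex of STAT2, IRF9 and a STAT partner that binds interferon-stimulated response elements (ISRE). SOCS proteins are induced by the same signals and restrain the kinases. Tumours can escape T cells by losing parts of this route, and a long exposure to IFNG is known to leave tumour cells with lasting interferon-stimulated transcription.

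Expression is given as normalised counts, calculated back from the deposited log2 values, and differences are taken between the deposited log2 values, on which changes of low counts look smaller than they are. The LLC1 and KP tables were normalised separately, so levels and differences were compared within a line only. Estimated depth was 13.3 to 34.8 M fragments per LLC1 library and 13.7 to 32.7 M per KP library. All 9 genes passed the filter on low values in LLC1 and 8 did in KP, where Socs1 lay below it. A difference was called where the limma adjusted p over all kept genes was below 0.05. With 3 libraries against 3, an exact permutation test of a single gene could not go below p = 0.1, so the calls rest on the limma fit.

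Chronic IFNG LLC1 tumours had 2 of the 9 genes called against Parental LLC1, Irf1 and Irf9, both higher, where 24.5% of all kept genes were called (9.03% higher and 15.5% lower). Relapsed LLC1 tumours had 4 of the 9 called, Jak1 and Ifngr1 higher and Irf1 and Ifngr2 lower, against 45.4% of all kept genes (25.9% higher and 19.5% lower). Chronic IFNG KP tumours had 2 of 8 called, both receptor chains, which were higher, against 21.8% of all kept genes (12.8% higher and 9% lower). 1st relapse KP tumours had 3 of 8 called, Ifngr1, Ifngr2 and Irf1, all higher, against 50.9% of all kept genes (25.4% higher and 25.5% lower). 2nd relapse KP tumours had 5 of 8 called, with Jak2, Ifngr2, Ifngr1 and Irf9 higher and Irf1 lower, against 65.8% of all kept genes (36.8% higher and 29% lower). Late relapse KP tumours had 5 of 8 called, with Ifngr2, Jak1, Jak2 and Ifngr1 higher and Irf1 lower, against 56.9% of all kept genes (31% higher and 25.9% lower). Against parental tumours, the share of members called was near or below the share of all genes in the 6 comparisons, so the counts by themselves do not set these genes apart, and the values of each gene are given below. The comparisons within a line share the same 3 parental libraries.

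**Figure D1:**
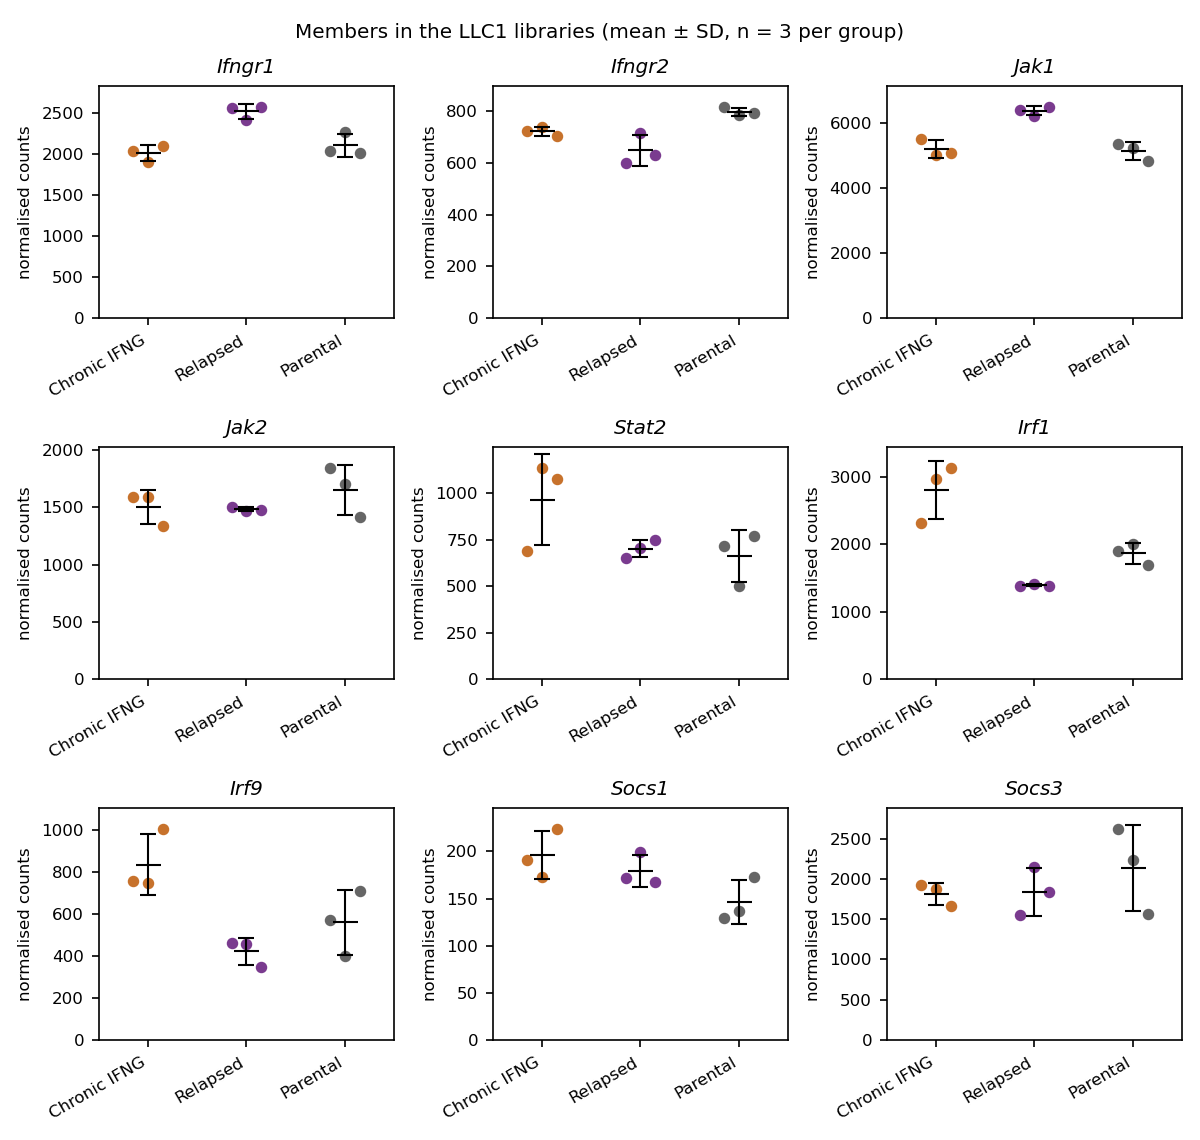
Normalised counts of the 9 genes in the 9 LLC1 libraries, 1 point per library, with the mean and SD of each group as black bars (n = 3 per group, linear axes from 0). Irf1 was between 2318 and 3132 in Chronic IFNG LLC1, between 1381 and 1418 in Relapsed LLC1 and between 1695 and 1998 in Parental LLC1, with no overlap between the groups.

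**Figure D2:**
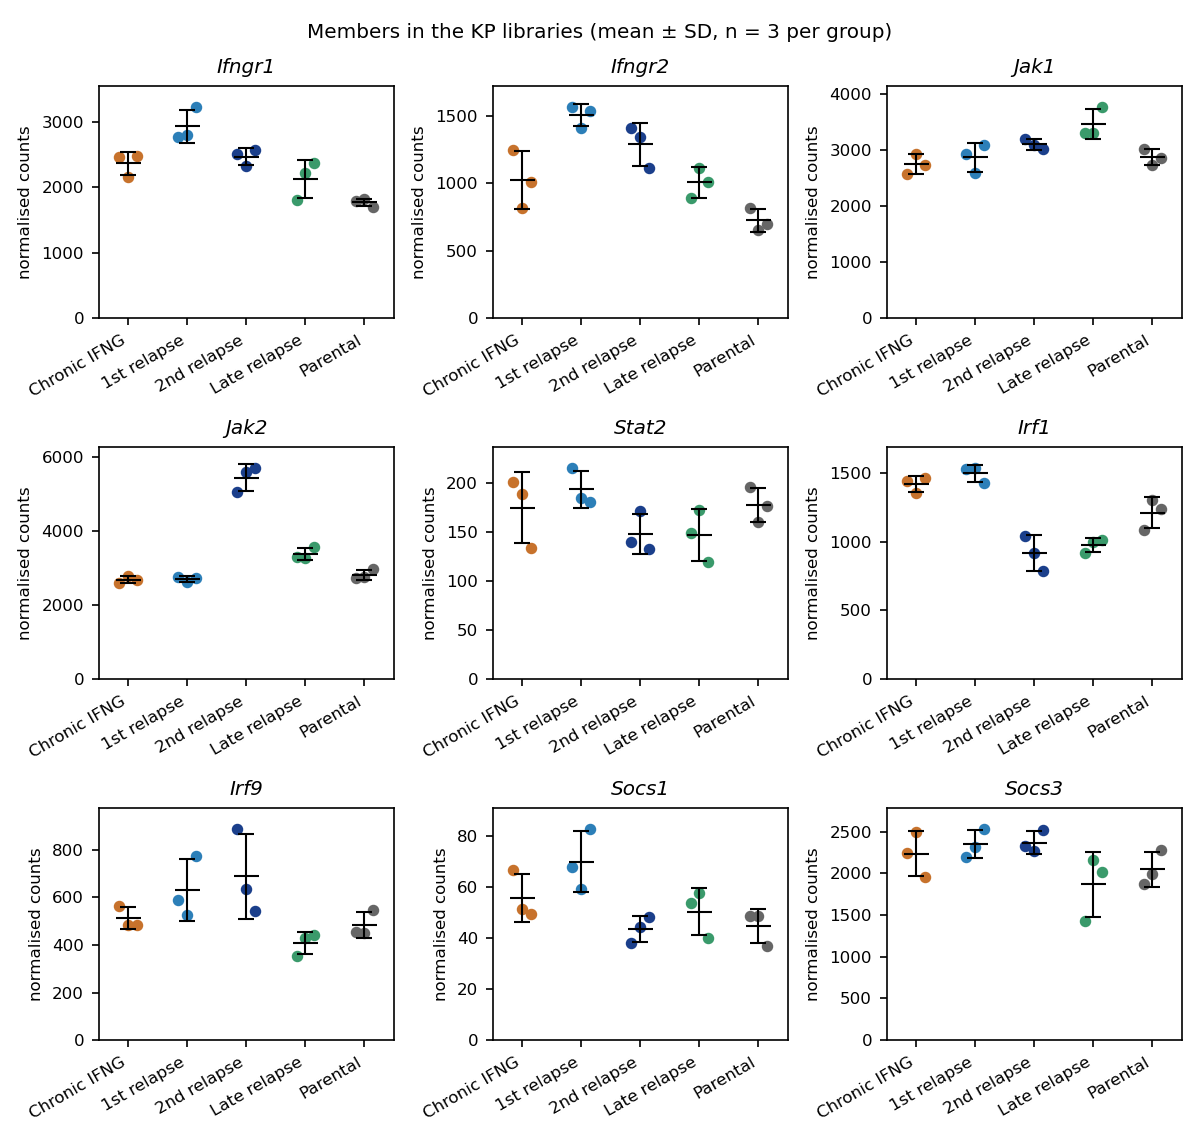
Normalised counts of the 9 genes in the 15 KP libraries, drawn as points with group means and SD (n = 3 per group, linear axes from 0). Jak2 in 2nd relapse KP, between 5047 and 5707, stands above every other KP library, and Ifngr2 in 1st relapse KP, between 1412 and 1567, lies above all Parental KP libraries.

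The sorted cells were checked against markers. In KP, Krt8, a keratin of simple epithelia, had 45623 to 95452 normalised counts per library, and the epithelial adhesion gene Epcam had 635.1 to 8497. In LLC1 Krt8 had 2194 to 4248 and Epcam 0 to 28.3, so the epithelial adhesion marker was near absent there. Ptprc, which encodes the CD45 used in the sort, had at most 67.0 normalised counts in LLC1 and 219.4 in KP, the highest in 1 Parental KP library, and the T cell gene Cd3e at most 5.41 and 13.8. The summed level of 20 leukocyte genes was 490.2 to 522.4 in Chronic IFNG LLC1, 721.6 to 1366 in Relapsed LLC1 and 543.8 to 588.6 in Parental LLC1. In KP that sum was 1336 to 1731 in Chronic IFNG KP and 1811 to 1998 in 1st relapse KP. It was 1608 to 1877 in 2nd relapse KP, 1250 to 1494 in Late relapse KP and 682.9 to 1216 in Parental KP. Cd14 and Lyz2 made up most of it, and they went opposite ways in 2nd relapse KP. Cd14 had 1355 to 1576 there, against 301.2 to 354.9 in Parental KP. Lyz2 (18.7 to 38.5 against 86.7 to 233.1) and Ptprc (12.7 to 37.2 against 43.5 to 219.4) were lower. Of 13 fibroblast genes kept in LLC1, 10 rose and none fell in Chronic IFNG LLC1 against Parental LLC1, where 9.03% of all kept genes rose. In Relapsed LLC1 7 fell, where 19.5% of all kept genes fell. Of 12 kept in KP, 10 rose in 1st relapse KP, 11 fell in 2nd relapse KP, 1 rose in Late relapse KP and none was called in Chronic IFNG KP. Of all kept genes, 25.4% rose in 1st relapse KP, 29% fell in 2nd relapse KP and 31% rose in Late relapse KP. The summed fibroblast level was 510614 to 826205 normalised counts in Chronic IFNG LLC1, 304634 to 337936 in Relapsed LLC1 and 278086 to 396205 in Parental LLC1. In KP it was 11539 to 34250 in Chronic IFNG KP, 67370 to 92719 in 1st relapse KP, 2271 to 3105 in 2nd relapse KP, 14180 to 64690 in Late relapse KP and 16943 to 26145 in Parental KP. Of 9 epithelial genes, 6, 7, 8 and 7 rose in Chronic IFNG, 1st, 2nd and Late relapse KP and none fell. The shares of all kept genes that rose there were 12.8%, 25.4%, 36.8% and 31%. In LLC1 3 epithelial genes were kept, of which 1 fell in Chronic IFNG LLC1 and 2 rose in Relapsed LLC1. The summed level of 10 endothelial and pericyte genes was 5074 to 6034 in 2nd relapse KP and 6046 to 6841 in Late relapse KP. It was 2913 to 3193 in Chronic IFNG KP, 4185 to 4821 in 1st relapse KP and 3808 to 4019 in Parental KP. Only 3 of the 10 were kept in KP, of which 2 rose and 1 fell in 2nd relapse KP. The endothelial gene Pecam1 had at most 39.9 in any KP library. The summed level of 5 erythroid genes was 83.9 to 894.5 in Relapsed LLC1, against 9.54 to 24.0 in Parental LLC1. Fibroblast, epithelial, endothelial, erythroid and leukocyte genes thus moved with several of the groups below, and their part in the results was not tested. In such bulk libraries, fewer cells of a type and less RNA per cell cannot be told apart.

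Satellite-like RNA, the summed counts of 9 predicted genes near the start of chromosome 9, also set libraries apart. It was 4072, 72688 and 50913 normalised counts in Chronic IFNG LLC1, 817.8, 848.6 and 453.0 in Relapsed LLC1, and 62422, 17482 and 23678 in Parental LLC1. The first Chronic IFNG LLC1 library and all 3 Relapsed LLC1 libraries were therefore low. In KP it was 126966 to 168377 in 2nd relapse KP and 130144 to 235768 in Late relapse KP, above the range of 7007 to 89946 over the other 9 libraries. Where adding this level to the fit changed a call against parental tumours, the value is given beside that call.

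Both receptor chains were higher in all 4 treated or relapsed KP groups than in Parental KP, and the 1st relapse had the highest mean of both. Ifngr1 (chr10:19591949-19610229, plus strand, GRCm38) encodes the ligand-binding chain. It had 2466, 2166 and 2479 normalised counts in Chronic IFNG KP, 2771, 2806 and 3230 in 1st relapse KP, 2519, 2324 and 2570 in 2nd relapse KP, 1804, 2223 and 2371 in Late relapse KP, and 1790, 1818 and 1704 in Parental KP. Only the first Late relapse KP library reached into the parental range. The log2 difference from Parental KP was 0.33 in Chronic IFNG KP (SE 0.076, limma adjusted p = 0.00558), 0.59 in 1st relapse KP (adjusted p = 1.88e-05), 0.39 in 2nd relapse KP (adjusted p = 0.000445) and 0.21 in Late relapse KP (adjusted p = 0.0316). The call in Late relapse KP was lost without the first or the third parental library, without the second or the third Late relapse library, with limma adjusted p of 0.0595 to 0.147, and with no filter on low values (0.0622).

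Ifngr2 (chr16:91547072-91565623, plus strand, GRCm38) encodes the second chain, often the scarcer of the pair. It had 1247, 821 and 1010 normalised counts in Chronic IFNG KP, 1567, 1412 and 1539 in 1st relapse KP, 1414, 1347 and 1112 in 2nd relapse KP, 890, 1118 and 1014 in Late relapse KP, and 820, 658 and 700 in Parental KP. All 4 groups lay above Parental KP, with the second Chronic IFNG KP library within 1 count of the highest parental one. The mean in 1st relapse KP was 2.07 times that in Parental KP, a log2 difference of 0.73 (95% interval 0.52 to 0.93, limma adjusted p = 2.18e-05). The log2 difference was 0.56 in 2nd relapse KP (adjusted p = 0.000119), 0.31 in Late relapse KP (adjusted p = 0.0129) and 0.32 in Chronic IFNG KP (adjusted p = 0.0266). The Chronic IFNG KP call did not hold when the second or the third parental library, or the first or the third Chronic IFNG library, was left out (limma adjusted p of 0.067 to 0.139), and with satellite-like RNA in the fit it was 0.0975. The Late relapse KP call was lost without the second parental library (adjusted p = 0.0518) or the second Late relapse library (0.058).

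In LLC1 the chains went opposite ways in the relapse. Ifngr1 had 2561, 2417 and 2569 normalised counts in Relapsed LLC1 and 2032, 2267 and 2006 in Parental LLC1, without overlap, while Chronic IFNG LLC1 had 2036, 1899 and 2096. Its log2 difference in Relapsed LLC1 was 0.22 (limma adjusted p = 0.00897). Ifngr2 fell to 601, 715 and 631 normalised counts in Relapsed LLC1, against 817, 788 and 792 in Parental LLC1, a log2 difference of -0.19 (limma adjusted p = 0.00903). Chronic IFNG LLC1 had 723, 738 and 706, also under every parental library, but the difference of -0.094 was not called (95% interval -0.20 to 0.015, limma adjusted p = 0.19). With satellite-like RNA in the fit, neither chain was called in Relapsed LLC1 (log2 differences of 0.13 and -0.16, limma adjusted p = 0.515 and 0.348). Per kilobase of exon, the mean level of Ifngr1 exceeded that of Ifngr2 in every group. It was 832.5, 1031, 868.0, 749.2 and 621.9 counts per kb for Ifngr1 in Chronic IFNG KP, 1st relapse KP, 2nd relapse KP, Late relapse KP and Parental KP, and 272.3, 399.8, 342.7, 267.4 and 192.7 for Ifngr2 in the same order.

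**Figure D3:**
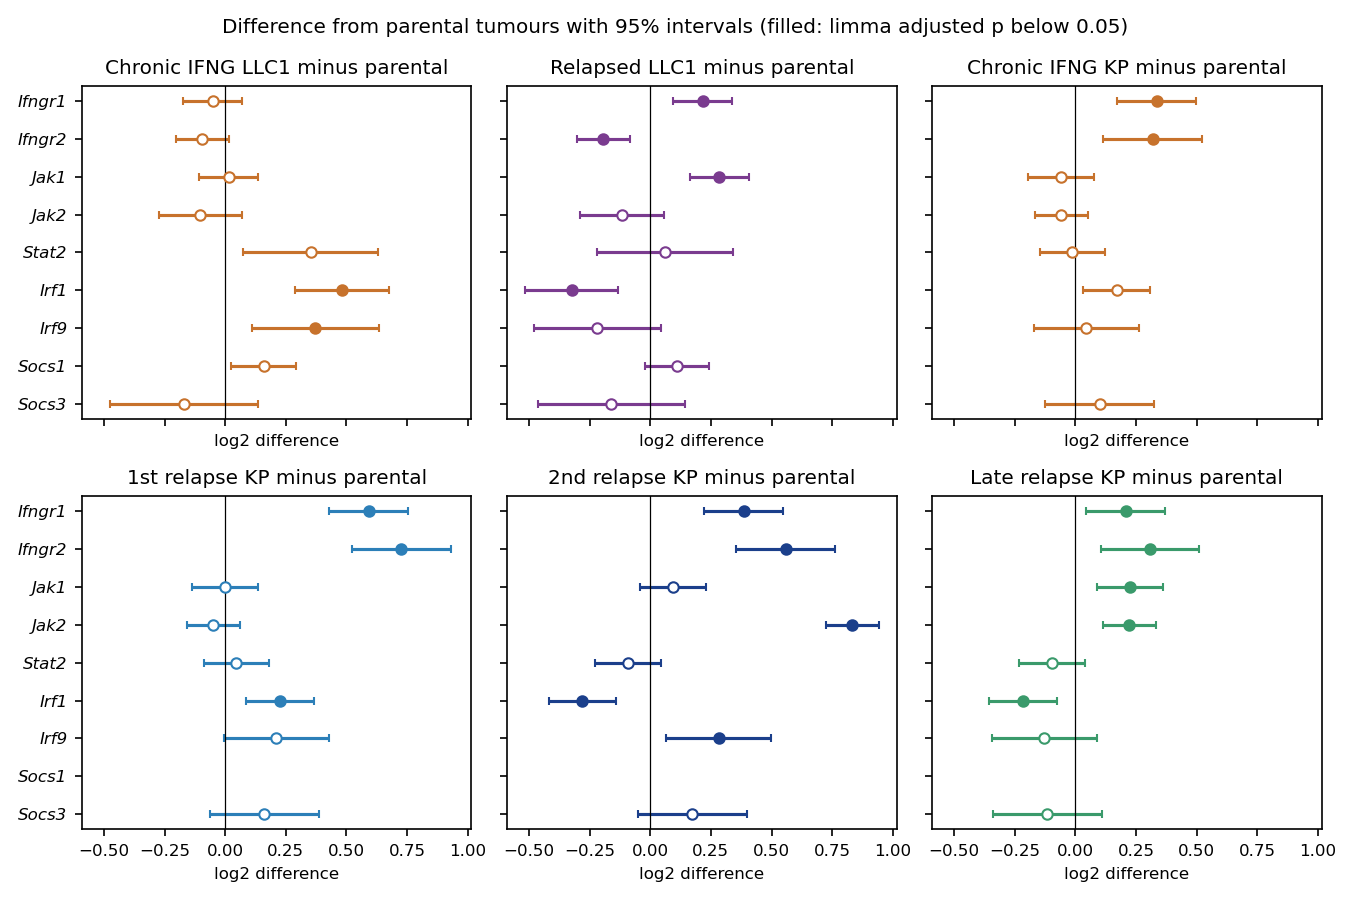
Log2 difference of each of the 9 genes from the parental tumours of its line, with 95% intervals from limma, in 6 panels of 1 group each. Filled points passed the limma adjusted p of 0.05; Socs1 has no point in KP, where it was below the filter, and the largest difference is that of Jak2 in 2nd relapse KP at 0.83.

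Jak2 was the member with the largest difference from parental tumours, in 2nd relapse KP, and it was called against parental tumours in the 2nd and late relapses of KP alone. The gene (chr19:29251828-29313080, plus strand, GRCm38) encodes the kinase carried by IFNGR2, which also serves hormone and growth factor receptors. It had 5047, 5599 and 5707 normalised counts in 2nd relapse KP, 3310, 3266 and 3567 in Late relapse KP, and 2741, 2751 and 2974 in Parental KP. These ranges do not overlap. Chronic IFNG KP (2597, 2798 and 2669) and 1st relapse KP (2769, 2631 and 2722) overlapped with the parental range or lay just below it. The mean in 2nd relapse KP was 1.93 times the parental one, a log2 difference of 0.83 (SE 0.051, limma adjusted p = 3.29e-09), and in Late relapse KP the log2 difference was 0.22 (adjusted p = 0.00198). In Chronic IFNG KP and 1st relapse KP it was -0.059 (95% interval -0.17 to 0.051) and -0.050 (-0.16 to 0.060), neither called. Both calls held under every alternative that tested them. In LLC1, Jak2 had 1588, 1591 and 1335 in Chronic IFNG LLC1, 1500, 1464 and 1479 in Relapsed LLC1, and 1842, 1701 and 1413 in Parental LLC1, and neither difference was called (limma adjusted p = 0.367 and 0.245). Without the third parental library, Relapsed LLC1 was lower by -0.20 (limma adjusted p = 0.0402).

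The genes around Jak2 were examined after its values were known. Of 13 kept genes that start within 1 Mb of it, 11 rose and none fell in 2nd relapse KP against Parental KP, where 36.8% of all kept genes rose, and their median log2 difference was 0.37 against 0.030 for all kept genes. Gldc, a glycine cleavage enzyme that starts 924 kb downstream, had 2.40 and Il33, an alarmin cytokine 673 kb downstream, 1.76. Ak3, a mitochondrial nucleotide kinase 204 kb upstream, had 1.18, and Glis3, a zinc finger transcription factor 572 kb upstream, 0.92. Plpp6, Ranbp6, Ermp1, Plgrkt, Rcl1, Uhrf2 and 9930021J03Rik had 0.26 to 0.56, while Cdc37l1 (-0.12) and Ric1 (-0.035) were not called. In Late relapse KP against 2nd relapse KP, 12 of the 13 fell, with a median of -0.46. In 1st relapse KP against Parental KP, where Jak2 was not called, 6 rose and 3 fell (25.4% and 25.5% of all kept genes). In Late relapse KP, where Jak2 was also called higher, 5 rose and 4 fell against Parental KP (31% and 25.9% of all kept genes). Against Chronic IFNG KP 4 rose and 6 fell (25.8% and 24.6%), and against 1st relapse KP 1 rose and 7 fell (24.6% and 23.5%). The neighbours thus rose with Jak2 in 2nd relapse KP. In Late relapse KP against Parental KP their counts were near the shares of all kept genes. The cause was not tested. Around Stat2 the values ran the other way in 2nd relapse KP against Parental KP. Of 50 kept genes within 1 Mb, 30 fell and 4 rose, with a median of -0.22, where 29% of all kept genes fell. Such movement was not particular to Jak2. Around Irf9, 20 of 38 kept genes rose and 4 fell in that comparison. In Late relapse KP against 2nd relapse KP, 27 of those 38 fell and none rose, where 29.7% of all kept genes fell.

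**Figure D4:**
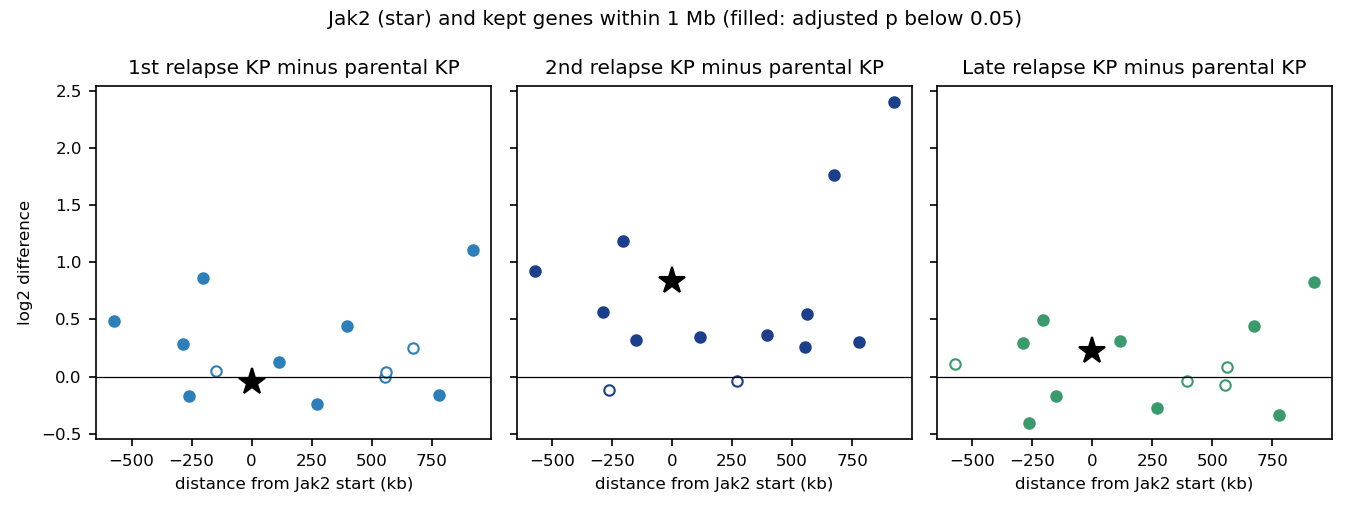
Log2 difference from Parental KP of Jak2 (star) and of 13 kept genes that start within 1 Mb of it, against the distance of their annotated starts from that of Jak2 in kb, in 3 KP groups. Filled points passed the limma adjusted p of 0.05; in 2nd relapse KP 11 of the 13 lie above 0 and passed, up to 2.40 for Gldc.

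Jak1 moved less. The gene (chr4:101152367-101265282, minus strand, GRCm38) encodes the kinase carried by IFNGR1, shared with type I interferon and interleukin 6 family receptors. It had 6406, 6220 and 6484 normalised counts in Relapsed LLC1, above both Chronic IFNG LLC1 (5507, 5012 and 5080) and Parental LLC1 (5359, 5233 and 4832). The log2 difference of Relapsed LLC1 from Parental LLC1 was 0.29 (limma adjusted p = 0.00186). With satellite-like RNA in the fit it was 0.17 and not called (limma adjusted p = 0.343). In KP, Jak1 had 2570, 2922 and 2727 in Chronic IFNG KP, 2932, 2587 and 3094 in 1st relapse KP, 3199, 3089 and 3008 in 2nd relapse KP, 3299, 3305 and 3761 in Late relapse KP, and 3019, 2737 and 2860 in Parental KP. Only Late relapse KP was called against Parental KP, with a log2 difference of 0.23 (limma adjusted p = 0.00726), and it was above all other KP libraries. Per kilobase of exon, the mean level of Jak1 was above that of Jak2 in LLC1, with 719.5 against 299.1 counts per kb in Chronic IFNG LLC1, 881.4 against 294.5 in Relapsed LLC1 and 711.4 against 328.4 in Parental LLC1. In KP the order was reversed in every group, with 428.8 counts per kb for Jak1 and 1084 for Jak2 in 2nd relapse KP, and 397.4 and 561.0 in Parental KP.

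Irf1 was called in 5 of the 6 comparisons with parental tumours, as often as each receptor chain, and its direction differed between the groups. The gene (chr11:53770014-53778374, plus strand, GRCm38) encodes an interferon regulatory factor that drives antigen presentation and guanylate-binding protein genes. Its promoter is shown because it holds the GAS through which IFNG is known to act. In the RefSeq window of 250 bases before to 50 after the start (chr11:53769764-53770063, plus strand, GRCm38.p6), the motif TTCNNNGAA, which reads the same on both strands, matched once, 90 bases before the start, as marked in capitals:

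Irf1: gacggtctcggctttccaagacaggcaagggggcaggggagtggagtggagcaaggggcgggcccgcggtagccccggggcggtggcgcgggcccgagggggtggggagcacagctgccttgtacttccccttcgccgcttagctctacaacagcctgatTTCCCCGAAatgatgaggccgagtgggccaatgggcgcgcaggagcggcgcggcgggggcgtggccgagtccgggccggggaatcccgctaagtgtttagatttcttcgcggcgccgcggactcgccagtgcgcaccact

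The same motif was found in 8.30% of 32851 windows of this length, and in 2 of the 11 windows of the 9 members, the other being that of Socs3. In LLC1, Irf1 had 2318, 2977 and 3132 normalised counts in Chronic IFNG LLC1, 1385, 1418 and 1381 in Relapsed LLC1, and 1900, 1998 and 1695 in Parental LLC1. The 3 groups do not overlap. Chronic IFNG LLC1 averaged 1.51 times the parental level, a log2 difference of 0.48 (SE 0.088, limma adjusted p = 0.00399), and the call held under every alternative that tested it. Relapsed LLC1 fell by 0.32 on the log2 scale (limma adjusted p = 0.0116). With satellite-like RNA in the fit, that difference turned to 0.048 (limma adjusted p = 0.846). Satellite-like RNA was low in every Relapsed LLC1 library, so its level and the group could hardly be separated.

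In KP, Irf1 had 1437, 1354 and 1465 normalised counts in Chronic IFNG KP, 1528, 1535 and 1426 in 1st relapse KP, 1044, 917 and 784 in 2nd relapse KP, 916, 995 and 1012 in Late relapse KP, and 1084, 1304 and 1240 in Parental KP. The first 2 groups lay above every parental library and the last 2 relapses below every one. The log2 difference from Parental KP was 0.23 in 1st relapse KP (limma adjusted p = 0.00949), -0.28 in 2nd relapse KP (adjusted p = 0.00154) and -0.22 in Late relapse KP (adjusted p = 0.0111). In Chronic IFNG KP it was 0.17 and not called (95% interval 0.031 to 0.31, limma adjusted p = 0.0783). The 1st relapse call was lost without the first parental library (limma adjusted p = 0.054) and the Late relapse call without the second (0.0519), while the 2nd relapse call held under every alternative that tested it. The receptor chains and Irf1 therefore went opposite ways from Parental KP in the 2nd and late relapses and the same way in the 1st.

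Irf9 (chr14:55603571-55610030, plus strand, GRCm38) encodes the DNA-binding part of ISGF3. It had 755, 745 and 1004 normalised counts in Chronic IFNG LLC1, 461, 455 and 349 in Relapsed LLC1, and 570, 399 and 710 in Parental LLC1. Every Chronic IFNG LLC1 library was above the parental ones, which spread widely and overlapped with Relapsed LLC1. The log2 difference of Chronic IFNG LLC1 from Parental LLC1 was 0.37 (SE 0.118, limma adjusted p = 0.0427). This call was lost when any library but the third parental one was left out (limma adjusted p of 0.0534 to 0.138), without the filter (0.109), with the 2 groups alone (0.0727) and with the replicate number as a block (0.0522). In KP, Irf9 had 565, 485 and 486 in Chronic IFNG KP, 591, 525 and 776 in 1st relapse KP, 888, 634 and 544 in 2nd relapse KP, 355, 428 and 443 in Late relapse KP, and 454, 452 and 546 in Parental KP. Only 2nd relapse KP was called, at 0.28 (limma adjusted p = 0.0237), and the third library of that group lay just inside the parental range. Every Late relapse KP library lay below the parental ones, but the difference of -0.13 was not called (limma adjusted p = 0.292). 1st relapse KP became a call without the library numbered 2 of that group (0.28, limma adjusted p = 0.0465). The 2nd relapse call was lost without the first library of that group (log2 difference of 0.16, limma adjusted p = 0.141), without the first or second parental library (0.0694 and 0.0704) and under quantile normalisation (0.0534). In Relapsed LLC1 the Irf9 difference was -0.22 and not called (limma adjusted p = 0.156), but -0.35 without the second parental library (0.0259). Rnf31, a ubiquitin ligase gene, overlaps Irf9 on the same strand, and how reads were shared between them is not given in the sources used here. Rnf31 had log2 differences of 0.23 in Chronic IFNG LLC1 and 0.13 in 2nd relapse KP, neither called (limma adjusted p = 0.168 and 0.0873).

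Stat2 was not called in any of the 13 comparisons. The gene (chr10:128270559-128292849, plus strand, GRCm38) encodes the STAT specific to ISGF3, and its promoter is shown because the window holds the element that ISGF3 binds. The motif searched was GAAANNGAAA on both strands, which reads TTTCNNTTTC on the other one, and it was found in 3.44% of 32851 RefSeq windows and in 2 of the 11 windows of the members. In Stat2 (chr10:128270248-128270547, plus strand, GRCm38.p6) it starts 222 bases before the start:

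Stat2: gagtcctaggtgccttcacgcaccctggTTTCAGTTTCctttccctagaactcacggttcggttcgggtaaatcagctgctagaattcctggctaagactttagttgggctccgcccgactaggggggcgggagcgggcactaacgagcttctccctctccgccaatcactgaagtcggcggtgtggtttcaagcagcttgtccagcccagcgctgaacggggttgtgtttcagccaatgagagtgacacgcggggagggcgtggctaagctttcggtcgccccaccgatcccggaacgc

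Stat2 had 688, 1135 and 1075 normalised counts in Chronic IFNG LLC1, 654, 703 and 746 in Relapsed LLC1, and 718, 500 and 768 in Parental LLC1. The second and the third Chronic IFNG LLC1 libraries stood above all others, and the first lay inside the parental range. That first library is also the one low in satellite-like RNA. The log2 difference from Parental LLC1 was 0.35 (95% interval 0.073 to 0.63, limma adjusted p = 0.0654). Without the first Chronic IFNG LLC1 library it was 0.51 (adjusted p = 0.00755), and with satellite-like RNA in the fit 0.38 (0.00963). With the same term, Relapsed LLC1 had a Stat2 difference of 0.66 (limma adjusted p = 0.04), against 0.061 without it. In KP the level was low, at 134 to 202 normalised counts in Chronic IFNG KP, 181 to 216 in 1st relapse KP, 133 to 172 in 2nd relapse KP, 120 to 173 in Late relapse KP and 161 to 196 in Parental KP. All KP groups overlapped with the parental one. Under quantile normalisation Late relapse KP was lower than Parental KP by -0.18 (limma adjusted p = 0.032). Among the other comparisons, Stat2 became a call when 1 library was left out: in Relapsed LLC1 against Chronic IFNG LLC1 without the first Chronic IFNG library (-0.44, limma adjusted p = 0.00397), and in 2nd and Late relapse KP against 1st relapse KP without the second library of the later relapse (both -0.18, 0.043 and 0.0442).

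**Figure D5:**
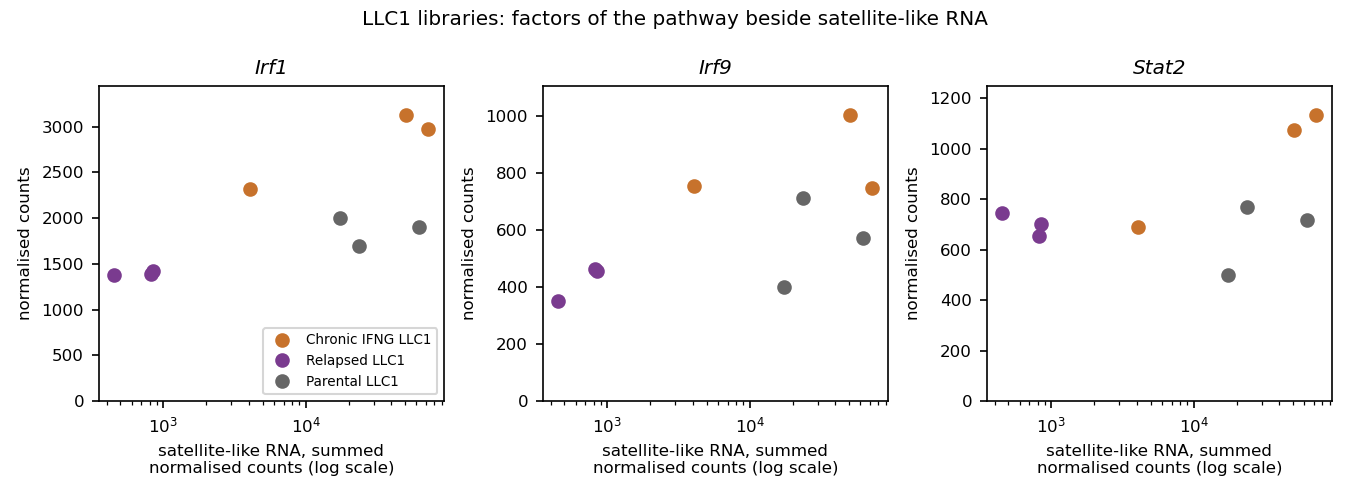
Normalised counts of Irf1, Irf9 and Stat2 in the 9 LLC1 libraries (linear axis) against the summed normalised counts of satellite-like RNA (log axis), 1 point per library and 1 colour per group. The 3 Relapsed LLC1 libraries sit at 453.0 to 848.6 of satellite-like RNA, and the Chronic IFNG LLC1 library at 4072 has the lowest Irf1 and Stat2 of its group.

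Socs1, the inhibitor of JAK kinases most closely tied to IFNG feedback, was among the least abundant members. The gene lies at chr16:10782240-10785536 on the minus strand (GRCm38). Its RefSeq window (chr16:10785487-10785786, minus strand, GRCm38.p6) is shown because it holds 2 overlapping ISRE matches, the first starting 83 bases before the start:

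Socs1: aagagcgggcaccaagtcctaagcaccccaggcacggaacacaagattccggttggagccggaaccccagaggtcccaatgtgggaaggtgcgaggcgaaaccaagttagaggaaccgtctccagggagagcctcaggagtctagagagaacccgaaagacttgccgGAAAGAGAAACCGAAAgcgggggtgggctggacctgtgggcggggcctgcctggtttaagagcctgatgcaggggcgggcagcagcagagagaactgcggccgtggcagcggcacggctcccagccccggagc

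Socs1 had 191, 173 and 224 normalised counts in Chronic IFNG LLC1, 172, 199 and 168 in Relapsed LLC1, and 129, 137 and 173 in Parental LLC1. The third parental library lay within the Relapsed LLC1 range and less than 1 count under the lowest Chronic IFNG LLC1 library. The log2 difference of Chronic IFNG LLC1 was 0.16 and not called (95% interval 0.026 to 0.29, limma adjusted p = 0.0781), and without the third parental library it was 0.20 (adjusted p = 0.0417). In KP, Socs1 had 66.6, 51.2 and 49.4 in Chronic IFNG KP, 67.7, 59.3 and 82.6 in 1st relapse KP, 37.8, 44.4 and 48.2 in 2nd relapse KP, 53.5, 57.5 and 39.9 in Late relapse KP, and 48.6, 48.6 and 36.9 in Parental KP. All 3 libraries of 1st relapse KP were above the parental ones, at 1.56 times the mean. With no filter on low values, the 1st relapse KP difference was 0.14 (limma adjusted p = 0.0573), and 2nd relapse KP was lower than 1st relapse KP by -0.15 (adjusted p = 0.0311).

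Socs3, induced chiefly by interleukin 6 family cytokines and acting on their receptors, was among the more abundant members, and the parental LLC1 libraries spread widely. It lies at chr11:117966079-117970047 on the minus strand (GRCm38), and the window at chr11:117969317-117969616 (minus strand, GRCm38.p6) held a GAS match 154 bases before the start:

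Socs3: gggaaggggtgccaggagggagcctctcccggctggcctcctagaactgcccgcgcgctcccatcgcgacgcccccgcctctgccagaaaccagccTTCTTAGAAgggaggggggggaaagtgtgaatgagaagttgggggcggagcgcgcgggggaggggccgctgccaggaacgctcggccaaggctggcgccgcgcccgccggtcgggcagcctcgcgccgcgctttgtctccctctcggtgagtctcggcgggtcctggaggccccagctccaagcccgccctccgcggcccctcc

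Socs3 had 1918, 1870 and 1662 normalised counts in Chronic IFNG LLC1, 1548, 2142 and 1831 in Relapsed LLC1, and 2618, 2237 and 1560 in Parental LLC1. The groups overlap, and neither difference was called (-0.17 and -0.16, limma adjusted p = 0.396 and 0.364). Without the third parental library both were, at -0.34 (adjusted p = 0.0434) and -0.33 (0.0298). In KP it had 2245, 2496 and 1960 in Chronic IFNG KP, 2201, 2316 and 2531 in 1st relapse KP, 2327, 2263 and 2519 in 2nd relapse KP, 1427, 2163 and 2011 in Late relapse KP, and 1876, 1988 and 2278 in Parental KP. No KP group was called against Parental KP, though 2nd relapse KP became a call when these 2 groups were fitted alone (0.17, limma adjusted p = 0.0422). Neither motif was found in the windows of Ifngr1, Ifngr2, Jak1, Jak2 or Irf9, nor in the second window of Irf1, which says only that these letters are absent there.

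The relapsed groups were also compared with the chronic group and, in KP, with each other. Relapsed LLC1 against Chronic IFNG LLC1 had 4 of 9 genes called, against 52% of all kept genes (31.5% higher and 20.5% lower). Irf1 fell by 0.81 (SE 0.088, limma adjusted p = 3.43e-05) and Irf9 by 0.59 (adjusted p = 0.00184), while Ifngr1 and Jak1 rose, both by 0.27. With satellite-like RNA in the fit, only Irf1 stayed called. Ifngr2 (-0.099) became a call without the second Relapsed LLC1 library (-0.14, limma adjusted p = 0.04). The overlapping Rnf31 was also lower in that comparison, at -0.35 (limma adjusted p = 0.0239). In KP, 1st relapse KP against Chronic IFNG KP had 2 of 8 called, against 31% of all kept genes (15.8% higher and 15.1% lower). Ifngr2 was higher by 0.41 and Ifngr1 by 0.26, and the Ifngr1 call was lost without the second Chronic IFNG library (limma adjusted p = 0.0916) or the third 1st relapse library (0.0944). 2nd relapse KP against Chronic IFNG KP had 4 of 8 called, against 64.3% (35.1% higher and 29.2% lower). Jak2 was higher by 0.89 and Irf1 lower by -0.45, and both held, whereas the calls of Ifngr2 (0.24) and Jak1 (0.15) were lost when single libraries were left out, 4 of the 6 for Ifngr2 and 5 of the 6 for Jak1 (limma adjusted p of 0.0607 to 0.199). Late relapse KP against Chronic IFNG KP had 3 of 8 called, against 50.4% (25.8% higher and 24.6% lower), with Irf1 at -0.39 and Jak1 and Jak2 both at 0.28. Socs3 became a call there without the second Late relapse library (-0.31, limma adjusted p = 0.0316), and so did Irf9 in 2nd relapse KP without the third library of that group (0.33, 0.0136).

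2nd relapse KP against 1st relapse KP had 3 of 8 called, against 62.2% of all kept genes (34.3% higher and 28% lower). Jak2 was higher by 0.88 and Irf1 lower by -0.51 (limma adjusted p = 9.16e-06), and Ifngr1 was lower by -0.21 (adjusted p = 0.029), a call lost without the third 1st relapse library (0.136) or the second 2nd relapse library (0.105). With satellite-like RNA in the fit it was -0.12 (limma adjusted p = 0.487). Late relapse KP against 1st relapse KP had 7 of 8 called, against 48.1% (24.6% higher and 23.5% lower), the largest count of the 13 comparisons. Irf1 (-0.44), Ifngr2 (-0.42), Ifngr1 (-0.38), Irf9 (-0.34) and Socs3 (-0.28) were lower and Jak2 (0.27) and Jak1 (0.23) higher. With satellite-like RNA in the fit these values were -0.35 for Ifngr2, -0.30 for Ifngr1, -0.34 for Socs3 and -0.11 for Irf9, and none of the 4 was called (limma adjusted p of 0.146 to 0.698). Irf9 also lost it without the third 1st relapse library (limma adjusted p = 0.0687) or the first Late relapse library (0.055), and Socs3 without the second or the third 1st relapse library (0.072 and 0.13) or the first Late relapse library (-0.14, 0.209). Late relapse KP against 2nd relapse KP had 4 of 8 called, all lower, against 54.9% (25.2% higher and 29.7% lower), with Jak2 at -0.61, Irf9 at -0.41, Socs3 at -0.29 and Ifngr2 at -0.25. The Socs3 call was lost without the first Late relapse library (-0.15, limma adjusted p = 0.158) or the first or the third 2nd relapse library, and the Ifngr2 call without any of 4 libraries (0.0676 to 0.138). Ifngr1 (-0.18) became a call without the third Late relapse library (-0.24, limma adjusted p = 0.0192). Rnf31 was lower there as well, at -0.24 (limma adjusted p = 0.00466). The order of the means across KP was thus 1st relapse, 2nd relapse, Chronic IFNG, Late relapse and Parental for both receptor chains. Among neighbours in that order, the Ifngr1 difference of 2nd relapse KP from Chronic IFNG KP was 0.050 (95% interval -0.11 to 0.21), and the Ifngr2 difference of Late relapse KP from Chronic IFNG KP was -0.011 (95% interval -0.21 to 0.19), both within the spread. The Ifngr2 difference of 2nd relapse KP from 1st relapse KP was -0.17 and not called (limma adjusted p = 0.139), except under quantile normalisation (-0.24, 0.0375). Ifngr1 in Late relapse KP was not called against Chronic IFNG KP either.

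The other genes of the route, taken as lists chosen with earlier results of these data known, moved less evenly. Many of their counts are near or below the share of all kept genes: against parental tumours 9.03% rose and 15.5% fell in Chronic IFNG LLC1, 25.9% and 19.5% in Relapsed LLC1, 12.8% and 9% in Chronic IFNG KP, 25.4% and 25.5% in 1st relapse KP, 36.8% and 29% in 2nd relapse KP, and 31% and 25.9% in Late relapse KP. Of the other interferon receptor, kinase and STAT genes, 1 of 9 kept rose and 1 fell in Chronic IFNG LLC1, and 2 rose and 1 fell in Relapsed LLC1. The kinase gene Jak3 had 0.42 in Chronic IFNG LLC1, and Stat3, the main STAT of interleukin 6 signals, -0.45 in Relapsed LLC1. In KP, of 10 kept, 2 rose and none fell in Chronic IFNG KP, 4 rose and 1 fell in 1st relapse KP, 1 rose and 3 fell in 2nd relapse KP, and 1 rose and 2 fell in Late relapse KP. Ifnlr1, a chain of the interferon lambda receptor, rose in all 4 KP groups, at 0.43, 0.68, 0.79 and 0.33 in Chronic IFNG, 1st, 2nd and Late relapse KP. Il10rb, its partner chain, rose in Chronic IFNG KP (0.16) and 1st relapse KP (0.40), and Tyk2, the kinase beside JAK1 on type I receptors, fell in 2nd relapse KP (-0.24) and Late relapse KP (-0.13). Of the other interferon regulatory factors, none of 3 kept was called in Chronic IFNG LLC1, and Irf7 (-0.52) and Irf3 (-0.24) fell in Relapsed LLC1. In KP, Irf7, which amplifies type I interferon, rose in 1st relapse KP (0.38) and 2nd relapse KP (0.85), and Irf8, a factor of myeloid cells, rose in Chronic IFNG KP (0.31), 1st relapse KP (0.53) and Late relapse KP (0.69).

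Among the other negative regulators, Ptpn2, a phosphatase that acts on JAK1 and STATs, fell in both LLC1 groups, at -0.28 in Chronic IFNG LLC1 and -0.29 in Relapsed LLC1. Pias3, an inhibitor of STAT binding, rose in both, at 0.33 and 0.54. In all, 1 of 13 kept rose and 2 fell in Chronic IFNG LLC1, and 2 rose and 3 fell in Relapsed LLC1. In KP, of 14 kept, none rose and 2 fell in Chronic IFNG KP, 1 rose and 6 fell in 1st relapse KP, 3 rose and 6 fell in 2nd relapse KP, and 4 rose and 2 fell in Late relapse KP. Socs5 fell in all 4 KP groups (-0.23, -0.55, -1.33 and -0.67 in Chronic IFNG, 1st, 2nd and Late relapse KP), and Socs2, the feedback inhibitor of growth hormone signals, had -0.22, 0.16, 0.84 and 0.46, each called. The interleukin 6 family list, which acts upstream of Socs3, had 7 kept genes in each line. In Relapsed LLC1 3 rose and 3 fell, among them the cytokine gene Lif (-1.77) and the receptor gene Osmr (-0.88), whereas Il6st, the shared gp130 chain, rose (0.45). Il6st fell in 2nd relapse KP (-0.81) and Late relapse KP (-0.45). Of 10 listed interferon genes, 2 were in the LLC1 table and 3 in the KP table, and none of these passed the filter. Ifng itself had at most 2.47 normalised counts in any KP library.

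Known targets of the route were read beside the members. Of 26 listed IFNG targets, 21 were kept in LLC1, and 14 rose and none fell in Chronic IFNG LLC1 against 9.03% of all kept genes that rose, with a median log2 difference of 0.46 against -0.016 for all kept genes. They included the GTPase genes Gbp2 (0.94) and Iigp1 (0.92), the chemokine gene Cxcl10 (0.83) and Nlrc5 (0.80), which switches on class I antigen presentation. Their summed level was 39757, 62278 and 71766 normalised counts in Chronic IFNG LLC1 and 37806, 38041 and 40817 in Parental LLC1, so the first Chronic IFNG LLC1 library, the one low in satellite-like RNA, lay inside the parental range. In Relapsed LLC1, 3 of them rose and 5 fell (median -0.033), where 25.9% of all kept genes rose and 19.5% fell. Cxcl10 had -0.95 and Iigp1 -0.91 there. The summed level of these targets in Relapsed LLC1 was 50044, 48071 and 43110, above every Parental LLC1 library. Such a sum is weighted towards abundant genes. H2-D1, a class I chain, averaged 16266 normalised counts in Relapsed LLC1, and B2m, which pairs with class I chains, averaged 12519. In KP, of 18 kept, 3 rose in Chronic IFNG KP, 13 in 1st relapse KP, 9 in 2nd relapse KP and 4 in Late relapse KP, and none, none, 2 and 1 fell. Of all kept genes, 12.8%, 25.4%, 36.8% and 31% rose and 9%, 25.5%, 29% and 25.9% fell, in the same order. The medians of these targets were 0.17, 0.47, 0.24 and 0.029. Tap1, a peptide transporter for class I presentation, had 0.77 and Icam1, an adhesion molecule, 0.76 in 1st relapse KP. H2-K1, a class I chain with close paralogs among which reads may be shared, had 2.47 in 2nd relapse KP, where B2m, its partner chain, fell (-0.59).

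Of 20 listed ISGF3 targets, which include Irf7 and the inhibitor Usp18 of the lists above, 19 were kept in LLC1, where 10 rose and none fell in Chronic IFNG LLC1 (median 0.43) and 2 rose and 5 fell in Relapsed LLC1 (median -0.31). Of all kept genes, 9.03% rose in Chronic IFNG LLC1, and 25.9% rose and 19.5% fell in Relapsed LLC1. Ifit3 had 1.05 and Rsad2 1.02 in Chronic IFNG LLC1, both antiviral effectors. Their summed level was 11239, 19606 and 20138 normalised counts in Chronic IFNG LLC1, 7842, 7408 and 5950 in Relapsed LLC1, and 9820, 6903 and 11393 in Parental LLC1. As for Stat2, the first Chronic IFNG LLC1 library lay inside the parental range. Of 9 kept in KP, none fell in any group, and 2 rose in Chronic IFNG KP, 6 in 1st relapse KP, 8 in 2nd relapse KP and 4 in Late relapse KP, with medians of 0.085, 0.38, 0.54 and 0.20. The shares of all kept genes that rose there were 12.8%, 25.4%, 36.8% and 31%. Ifit3 had 1.08 in 2nd relapse KP. In that group 36.8% of all kept genes rose and 29% fell, beside 9 and 2 of the 18 IFNG targets and 8 and 0 of the 9 ISGF3 targets.

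Genes whose values tracked each member over the libraries of a line are given as a description, since the libraries share their groups. Over the 9 LLC1 libraries, Irf1 was most like Gbp6 (Pearson r = 0.986), Psme1 (0.983) and Ly6e (0.979), and Irf9 most like Sp100 (0.956), Phf11d (0.947) and Cfb (0.946). Stat2 was most like Apol9a (0.919) and Oas1b (0.915), and Jak1 most like Tmem30a (0.986). Over the 15 KP libraries, Ifngr1 was most like Ephx1 (0.969), Icam1 (0.960) and Perp (0.959), and Ifngr2 most like Tmem102 (0.957) and Irgm1 (0.952), an interferon-inducible GTPase gene. Jak2 was most like Tpd52 (0.991), Ywhaz (0.989) and Map2k6 (0.986). Irf1 in KP was most like Gabarapl1 (0.935). The kept gene most like Socs3 had 0.912 in LLC1 and 0.885 in KP, with predicted genes left out as for every member.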

How the data were processed

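RNA was sequenced in 24 libraries with a stranded total RNA kit as paired-end reads, per the labels' protocols. The submitters' processing notes list DESeq2 1.34.0, Salmon 1.8.0, cutadapt 2.9 and genome build GRCm38 (mm10), with no role for any of them. The authors deposited 1 table per line (31618 genes in LLC1, 36040 in KP). The deposited values were read as log2 expression that the authors had variance-stabilised, going by the file title and the range.

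The lowest deposited value was taken as a count of 0 and the stabilisation was inverted to give normalised counts. Depth was estimated from the spacing of low values, and is approximate: 69.1% to 76.9% of them per library came out within 0.15 of a whole read, where chance gives 30%. A gene was kept if its mean in some group exceeded the table's lowest value by 1 log2 unit (130.4 normalised counts for LLC1, 144.2 for KP), which left 10581 and 11193 genes. Differences were fitted with limma 3.58.1 (intensity trend, all groups of a line in 1 fit, two-sided, Benjamini-Hochberg over all kept genes) in R 4.3.3. The script was tested on simulated data. Symbols, coordinates and exon lengths came from GENCODE vM21 (GRCm38). Promoter windows came from RefSeq (GRCm38.p6) and were found for all 9 members, 11 windows in all. Levels per kb used the union of a gene's exons and are approximate.

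The members and lists were chosen with earlier results of these data known. The text names every member, up to 4 genes per other list and comparison by size of difference, and the 3 genes most like each member, predicted genes left out. Not every gene or allele these rules named is reported here, and a few list genes were added after their values were seen. The alternatives were no filter, a filter of 3 log2 units, median centring or quantile normalisation of the libraries, no intensity trend, the 2 groups alone, the replicate number as a block, back-calculated counts with a pseudocount of 10, satellite-like RNA as a covariate and each library left out. The deviations of same-numbered libraries from their group means were correlated. Only for 1st relapse KP and Parental KP was r above 0.11 in all 3 pairs, though other comparisons also had only positive r. Late relapse KP and Parental KP, for instance, had 0.071 to 0.27. Over all 39 pairs r was -0.30 to 0.27, and the labels give no shared animal or day.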

Additional observations from a re-analysis of the deposited data

Results flagged for a closer look

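Chronic IFNG LLC1 was set beside Chronic IFNG KP, and Relapsed LLC1 beside each KP relapse. In a pair of genes, every library of the LLC1 group lay to one side of all parental libraries of its line and every library of the KP group beside it to the opposite side. Ifngr2 had a log2 difference of -0.094 in Chronic IFNG LLC1, which was not called (limma adjusted p = 0.19), and 0.32 in Chronic IFNG KP. In the relapses it had -0.19 in Relapsed LLC1, beside 0.73 in 1st relapse KP, 0.56 in 2nd relapse KP and 0.31 in Late relapse KP. Irf1 had -0.32 in Relapsed LLC1, which was 0.048 with satellite-like RNA in the fit, and 0.23 in 1st relapse KP, whereas 2nd relapse KP (-0.28) and Late relapse KP (-0.22) were lower like Relapsed LLC1. The difference between the lines was not tested for either gene, because the tables were normalised separately.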

How the results depend on the processing

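Of 48 calls among 107 tests of a member in a comparison, 24 held under every alternative that tested them, of which 15 were tested under the stricter filter. Against Parental LLC1, the count of members called in Chronic IFNG LLC1 was 1 with no filter, with the stricter filter, with the 2 groups alone and with the replicate block, and leaving out single libraries gave 1 to 4. Relapsed LLC1 had 1 call against Parental LLC1 and 1 against Chronic IFNG LLC1 with satellite-like RNA in the fit. The call against Parental LLC1 was Stat2, which was not called in the main fit, and the 4 main calls there were lost. Without single libraries the counts against Parental LLC1 and Chronic IFNG LLC1 were 4 to 6 and 4 to 5. With satellite-like RNA in the fit, the Irf1 difference of Relapsed LLC1 from Parental LLC1 was 0.048. Chronic IFNG KP had 1 call against Parental KP with the stricter filter, with the 2 groups alone and with satellite-like RNA in the fit, and 1 to 2 without single libraries. The stricter filter, which tested fewer members, left 1 call for 1st relapse KP, 2 for 2nd relapse KP and 3 for Late relapse KP against Parental KP, and 1 for 1st relapse KP against Chronic IFNG KP. It also left 4 for Late relapse KP against 1st relapse KP, which had 3 with satellite-like RNA in the fit, and 2 for Late relapse KP against 2nd relapse KP. 2nd relapse KP against Chronic IFNG KP had 2 calls with no filter, with the stricter filter and under quantile normalisation. Without single libraries the counts were 2 to 4 for 1st relapse KP, 4 to 5 for 2nd relapse KP and 3 to 5 for Late relapse KP against Parental KP. They were 1 to 2, 2 to 4 and 3 to 4 for 1st, 2nd and Late relapse KP against Chronic IFNG KP, 2 to 3 for 2nd relapse KP against 1st relapse KP, 5 to 8 for Late relapse KP against 1st relapse KP and 2 to 4 for Late relapse KP against 2nd relapse KP. The causes were not tested. The replicate block left 3 calls for 1st relapse KP against Parental KP, where same-numbered libraries had r above 0.11 in all 3 pairs. The labels do not say that the numbers pair libraries. In other comparisons the block ended the calls of Irf9 in Chronic IFNG LLC1 and of Jak1 in 2nd relapse KP against Chronic IFNG KP (limma adjusted p = 0.0562). It also made Stat2 a call in 2nd relapse KP against 1st relapse KP (limma adjusted p = 0.0455). What depth limits was not tested for single members; Socs1 was below the filter in KP.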
